A study of Arabidopsis thaliana with 9 samples.

Results

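The transcripts of sperm cells and of vegetative nuclei sorted from the same kind of Arabidopsis thaliana pollen tube were compared across all genes. The comparison takes 6 of the 9 libraries of the series, chosen by their column names in the count table: 3 of sperm cells and 3 of vegetative nuclei, all from tubes grown in vitro. Per the labels, plants grew in short days for 8 weeks and then in long days to flower, and pollen was spread on germination medium and kept in the dark for 6 h at 22.5 °C. All groups are given the genotype WT, and the labels describe a marker line in which the promoter of MGH3 (listed as HTR10) controls a GFP-tagged copy of that histone, and the ACT11 promoter controls H2B tagged with mRFP. Both kinds of material were collected by FACS, and libraries were made with Smart-seq2, which amplifies full-length cDNA and marks neither single molecules nor strand.

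A pollen tube carries a pair of sperm cells inside the vegetative cell, whose cytoplasm and nucleus build and steer the tube. The sperm cells are the gametes: one fertilises the egg cell and the other the central cell. The germline programme depends on the MYB factor DUO1, while MIKC*-type MADS-box factors act in the vegetative cell. A sperm library holds RNA of whole cells and a nucleus library holds RNA of nuclei, so cell type and compartment cannot be told apart here. In such bulk libraries fewer cells and less RNA per cell cannot be told apart either. The labels do not state whether the replicates are separate plantings or sorts. The p-values therefore rest on variation among these libraries, part of which may be technical.

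Promoters of 3 genes from each side are shown first, because they carry the 2 motifs whose shares are given for abundant genes below. Each is the 150 bases before the annotated gene start, 5′ to 3′ on the gene's strand, from the RefSeq annotation of TAIR10.1. In the 3 promoters of genes called higher in sperm cells, capitals mark AACCG on either strand, the core bound by MYB factors such as DUO1. HTR10 encodes the sperm histone H3, GEX1 a sperm nuclear envelope protein and HAP2 the gamete fusogen.
HTR10: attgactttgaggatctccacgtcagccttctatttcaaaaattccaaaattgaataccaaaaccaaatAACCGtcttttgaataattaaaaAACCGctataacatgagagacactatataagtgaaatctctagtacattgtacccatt
GEX1: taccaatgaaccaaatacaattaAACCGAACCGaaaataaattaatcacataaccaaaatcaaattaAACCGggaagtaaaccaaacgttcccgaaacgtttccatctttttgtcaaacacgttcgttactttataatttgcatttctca
HAP2: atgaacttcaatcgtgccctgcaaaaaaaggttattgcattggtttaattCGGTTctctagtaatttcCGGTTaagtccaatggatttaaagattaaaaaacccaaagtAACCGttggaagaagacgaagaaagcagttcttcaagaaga

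In the 3 promoters of genes called lower in sperm cells, capitals mark a MEF2-type CArG box, the kind of element bound by MIKC*-type MADS-box dimers. AT3G01270 encodes a pectate lyase family protein, ADF7 a pollen actin-depolymerising factor and LRX10 a leucine-rich repeat extensin of the tube wall.
AT3G01270: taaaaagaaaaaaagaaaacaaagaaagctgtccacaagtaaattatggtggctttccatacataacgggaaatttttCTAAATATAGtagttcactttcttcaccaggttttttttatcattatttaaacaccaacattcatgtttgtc
ADF7: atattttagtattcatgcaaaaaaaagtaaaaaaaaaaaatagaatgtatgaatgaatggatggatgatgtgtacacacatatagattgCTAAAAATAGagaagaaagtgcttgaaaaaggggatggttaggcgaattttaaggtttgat
LRX10: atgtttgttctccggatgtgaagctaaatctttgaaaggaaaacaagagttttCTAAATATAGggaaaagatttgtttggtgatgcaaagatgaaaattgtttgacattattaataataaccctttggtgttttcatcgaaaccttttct

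Total counts ranged from 14470065 to 40525238 in sperm libraries and from 13768069 to 35157304 in nucleus libraries. The 10 most abundant genes took 42.8% to 47.2% of the counts in sperm libraries and 19.3% to 20.9% in nucleus libraries. Sperm library 2 had 22277 genes with at least 10 counts, against 11781 and 12901 in the other 2 sperm libraries, and nucleus library 1 had 6491, against 12819 and 9823. Values below are CPM, counts scaled to a fixed library total, adjusted by TMM (a trimmed mean of log ratios), whose factors were 0.621 to 0.895 in sperm libraries and 1.17 to 1.53 in nucleus libraries. CPM is not corrected for gene length, so levels are compared within a gene only. Along the first principal component, with 76.5% of the variance, the groups lay apart.

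Both marker genes behind the sort went with their labels. As their promoters drive the sorting markers, these directions are no independent check of the sort. HTR10 stood at 1728, 1914 and 2047 CPM in sperm libraries and at 11.1, 14.0 and 5.17 CPM in nucleus libraries. ACT11, an actin of pollen and ovules, stood at 37.1, 59.1 and 70.6 CPM in sperm libraries and at 626, 616 and 878 CPM in nucleus libraries. The groups overlapped for neither gene, and the differences were 188-fold higher in sperm cells for HTR10 (edgeR quasi-likelihood test, adjusted p = 0.000567) and 12.7-fold lower for ACT11 (adjusted p = 0.00173). The fusion transgenes share coding sequence with HTR10 and with an H2B gene, and which of their reads were counted for those genes was not tested.

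Of 14061 genes tested, 6320 (44.9%) were called at an adjusted p under 0.05 in edgeR's quasi-likelihood test. In sperm cells 4314 genes (30.7%) were called higher and 2006 (14.3%) lower, as scaled shares of counts and not as amounts of RNA. Called differences were large: the median log2 fold change, sperm cells over nuclei, was 7.21 among genes called higher and -6.02 among genes called lower, or 6.44 and -5.96 with genes at 0 in a group set at their bound. At least 100-fold differences were seen for 1908 genes called higher and 803 called lower. The groups overlapped for only 5 of the 6320 called genes, and 2903 of the 7741 genes not called also had no overlap. The plot of all genes by group mean shows these 2 clouds well away from the line of equal level. The split depended on scaling: the median log2 fold change over all tested genes was 1.70, and with TMM factors taken before the expression filter it was 0.55, with 3399 genes called higher and 2480 lower. Without sperm replicate 1 the count fell to 3552 genes, with 2257 higher and 1295 lower, and without sperm replicate 2 those called higher fell to 2622. Without sperm replicate 2 and nuclei replicate 1 together the split turned, to 2307 higher and 2536 lower. Every gene called in both the full set and an alternative kept its direction, in all 21 alternatives. Such genes could hardly reverse, since the fits mostly share libraries. The share of full-set calls kept ranged from 55.6% without sperm replicate 1 to 99.9% with DESeq2.

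**Figure D1:**
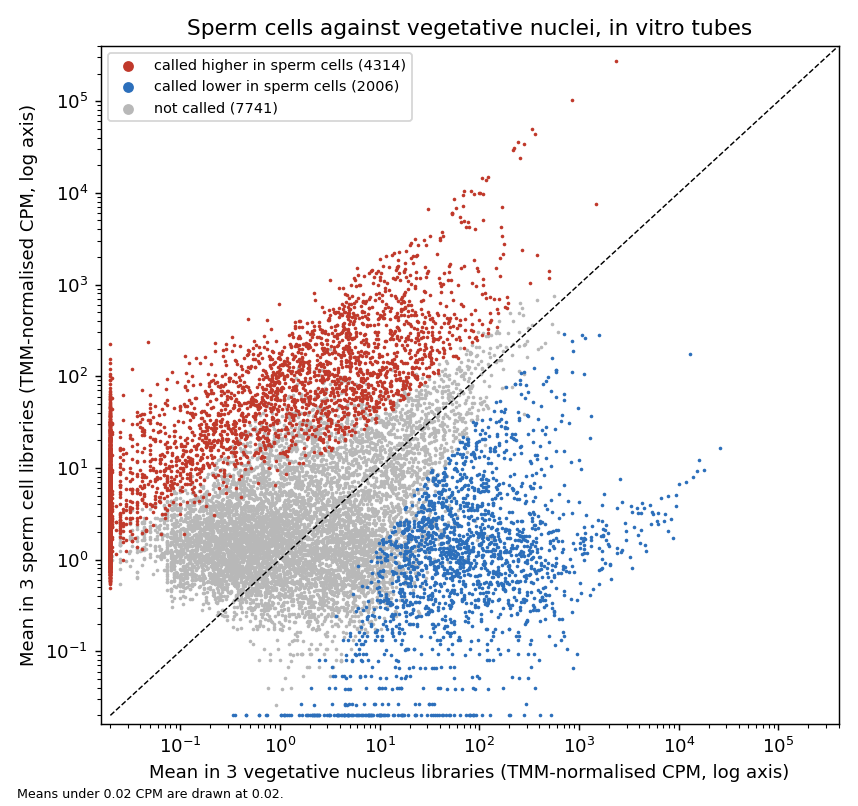
Mean TMM-normalised CPM of each tested gene in sperm cells (vertical, log axis) and vegetative nuclei (horizontal, log axis), 3 libraries each, coloured by call. The 4314 genes called higher and the 2006 called lower lie on opposite sides of the dashed line of equal level, and means under 0.02 CPM are drawn at 0.02.

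Every abundant gene differed between the groups. All 239 genes with at least 1000 CPM in their higher group were called, 132 of them higher and 107 lower in sperm cells. Between 100 and 1000 CPM, 1660 genes were tested, with 861 called higher and 676 lower. Between 1 and 10 CPM the calls leaned to one side, with 1736 of 6698 higher and 174 lower. At least 100 CPM in both groups was reached by 121 genes, of which 51 were called higher, 16 lower and 54 were not called.

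MIOX5, a pollen-expressed myo-inositol oxygenase, was the 1 gene whose 95% interval lay within a 2-fold difference either way at 100 CPM or more in both groups. It stood at 288, 424 and 368 CPM in sperm libraries and at 306, 366 and 343 CPM in nucleus libraries. The groups overlapped, and the log2 fold change was 0.09 (SE 0.39). Its sign turned with scaling and with single libraries, to -0.34 with upper-quartile factors, -0.03 without sperm replicate 2 and -0.75 without nuclei replicate 1. WRKY2, a factor that acts upstream of the zygotic WOX genes, was also close, at 162, 194 and 206 CPM in sperm libraries against 136, 173 and 211 CPM in nucleus libraries, and was not called (log2 fold change 0.11, SE 0.42, edgeR adjusted p = 0.849). Its sign too turned, to -0.30 with upper-quartile factors and -0.76 without nuclei replicate 1.

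The genes most abundant in sperm cells outside the lists stood far above their level in nuclei. AT1G34095, a locus with no description in the annotation used, had 85090, 121900 and 98740 CPM in sperm libraries against 1295, 856 and 388 CPM in nucleus libraries. PEG2, a paternally expressed imprinted gene of the endosperm, had 29900, 41890 and 35790 CPM against 204, 368 and 159 CPM. EIN3, the central transcription factor of ethylene signalling, had 7339, 10760 and 12050 CPM against 80.1, 153 and 66.2 CPM. For all 3 every sperm library lay above every nucleus library, by 120-fold, 147-fold and 101-fold (edgeR adjusted p = 0.000627, 0.000555 and 0.000611).

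The same rule gave SDG4, a SET-domain protein, at 151-fold higher in sperm cells, MAPKKK20, a kinase of the MAP kinase cascade, at 96.6-fold and MAGL8, a lipase-like hydrolase, at 89.0-fold. AT1G80470, an F-box family protein, was 134-fold higher, and AT5G15030, with a paired amphipathic helix, 119-fold higher. The other 4 loci (AT1G75870, AT4G11543, AT4G21895 and AT2G45403) were 92.3- to 137-fold higher. Over the 132 genes called higher with at least 1000 CPM in sperm cells the median fold was 89.0, with quartiles of 45.0 and 126.

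Abundant sperm transcripts were counted at low levels in the nucleus libraries. The 132 genes stood at a median of 1.36%, 1.37% and 0.586% of their sperm mean in nucleus libraries 1, 2 and 3. In the other direction, the 107 genes called lower with at least 1000 CPM in nuclei stood at 0.0415%, 0.127% and 0.0584% of their nucleus mean in sperm libraries 1, 2 and 3. Not every gene followed these medians: the 8 gamete fusion genes summed to 123, 161 and 292 CPM in nucleus libraries 1, 2 and 3, highest where the median was lowest. GEX1 alone made up most of each of these sums. The 19 sperm markers summed to 264600 to 393300 CPM in sperm libraries and 1758 to 3928 CPM in nucleus libraries, and the 37 vegetative markers to 258 to 439 CPM in sperm libraries and 37700 to 42810 CPM in nucleus libraries. Of 18 tested sperm markers 17 were called higher and none lower, and of 37 tested vegetative markers 36 were called lower and none higher. Of all tested genes 30.7% were called higher and 14.3% lower. Both lists were chosen as known sperm or vegetative genes and are no separate support for the calls. The part of RNA carried over in the sort in these levels was not tested.

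The most abundant nucleus transcripts outside the lists included several that code for cell wall and secreted proteins. sks13, a pollen multicopper oxidase-like protein, had 3.80, 28.2 and 17.4 CPM in sperm libraries and 27640, 22870 and 27920 CPM in nucleus libraries. The pectate lyase family gene AT3G01270 had 3.64, 16.1 and 8.07 CPM in sperm libraries and 16230, 14210 and 14930 CPM in nucleus libraries. RALFL8, a RALF signalling peptide, had 1.16, 7.43 and 2.85 CPM against 15840, 7307 and 5071 CPM. The groups were separated by 1589-fold for sks13, 1634-fold for AT3G01270 and 2467-fold for RALFL8, each lower in sperm cells (edgeR adjusted p = 0.000681, 0.000555 and 0.000819).

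BCP1, an arabinogalactan protein of pollen, was 2965-fold lower in sperm cells, the beta-galactosidase gene BGAL11 1583-fold lower, the Ole e 1 family gene AT5G45880 1865-fold lower and the pectin lyase-like gene AT3G07820 1682-fold lower. The cupin gene AT5G26700 was 3765-fold lower, and AT1G78460, of the SOUL heme-binding family, 1823-fold lower. Loci without a description, AT3G28750 and AT5G39880, were 1306-fold and 1755-fold lower. PMEIL, a pectin methylesterase inhibitor family gene, stood out with 128, 197 and 203 CPM in sperm libraries against 15810, 11920 and 10860 CPM in nucleus libraries, 73.2-fold lower. Over the 107 abundant genes called lower the median fold was 1290, with quartiles of 749 and 2030.

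Some genes were counted on one side only. At least 10 counts in each sperm library and none in any nucleus library were found for 1262 genes, and the reverse for 89 genes. After thinning to the shallowest library these were 1039 and 124 genes, and with a minimum of 20 counts 770 and 77. All 1433 tested genes with no counts in nuclei were called higher and all 97 with none in sperm cells lower, since the expression filter passes such genes only through the other group. A count of 0 in all nucleus libraries allows up to 0.0273 CPM, and a count of 0 in all sperm libraries up to 0.0478 CPM, for counting error only and taking 3 counts over the group as the limit.

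Calls differed between gene lists, as the plot of calls in each list shows. All 7 tested gamete fusion genes were called higher in sperm cells, against 30.7% of all tested genes, with a median log2 fold change of 7.47, against 1.70 over all genes. The other member, GEX2, did not pass the filter, with at most 11 counts in a library. All 8 members are also among the 19 sperm markers above, so their calls were already counted there. The list was chosen for sperm genes and is no separate support. GEX1 had 5674, 6341 and 9071 CPM in sperm libraries and 88.3, 137 and 280 CPM in nucleus libraries, 41.7-fold higher (adjusted p = 0.00112, edgeR). HAP2 had 161, 161 and 250 CPM in sperm libraries and 0.062, 0.28 and 1.14 CPM in nucleus libraries, 385-fold higher. The groups overlapped for none of the 7, as for all but 5 of the 6320 genes called.

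**Figure D2:**
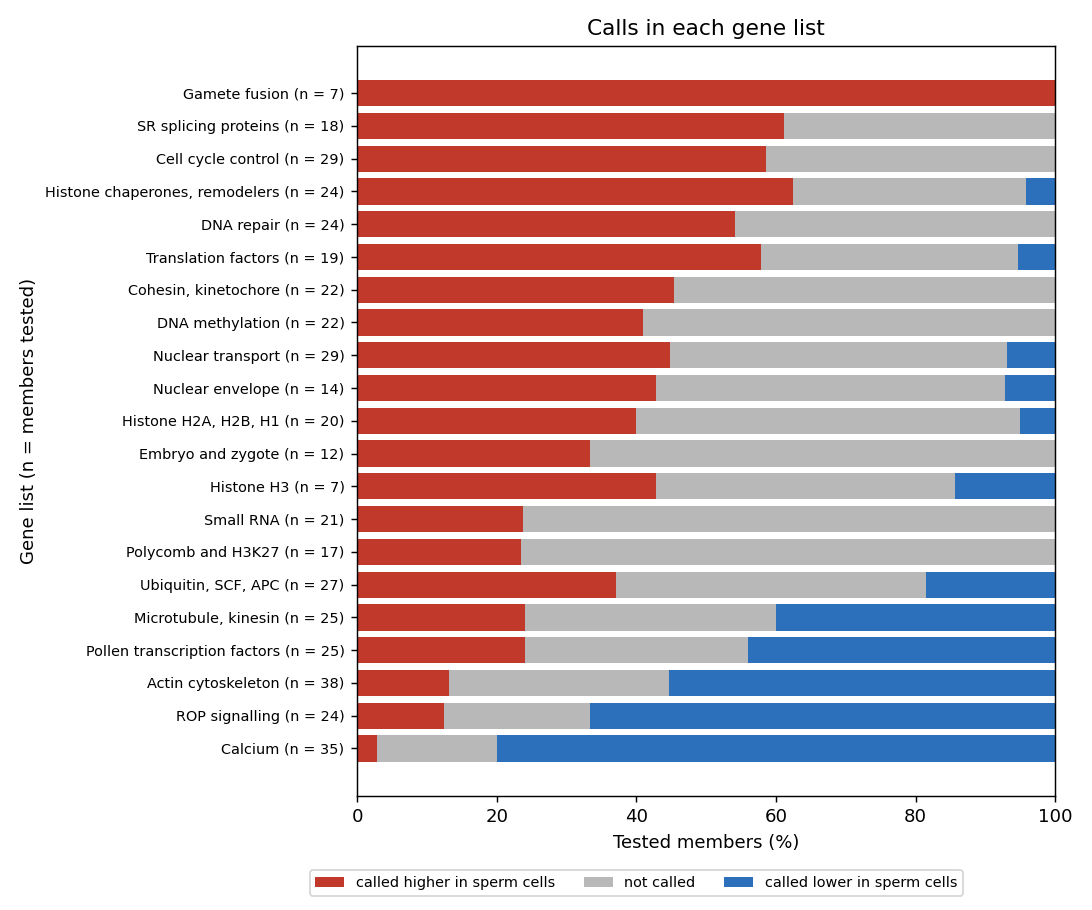
Share of tested members (horizontal, percent) called higher, not called or called lower in sperm cells, for 21 gene lists, with the number tested beside each name. All 7 gamete fusion genes were called higher, and 28 of 35 calcium genes were called lower. The gamete fusion genes are also sperm markers, and some calcium genes are also vegetative markers.

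Chromatin genes were mostly higher in sperm cells where they were called. Of 24 tested histone chaperones and remodelers 15 (62.5%) were called higher and 1 (4.17%) lower, with a median log2 fold change of 4.37. Of all tested genes 30.7% were called higher and 14.3% lower. The remodeler DDM1, which keeps transposons methylated, had 594, 971 and 942 CPM in sperm libraries and 19.1, 17.2 and 17.4 CPM in nucleus libraries (46.7-fold, edgeR adjusted p = 0.000611). ATRX, a remodeler tied to H3.3 deposition, had 2653, 4014 and 2997 CPM against 50.7, 55.5 and 14.9 CPM. For both genes the sperm libraries stood well clear of the nucleus libraries. MSI3, a WD40 histone-binding protein, had 75.9, 124 and 113 CPM in sperm libraries and no counts in nucleus libraries, so it was at least 3824-fold higher. SPT16 and SSRP1, the subunits of the FACT complex, were 22.3-fold and 39.8-fold higher. The 1 member called lower was the nucleosome assembly gene NAP1;2, at 13.7, 34.3 and 21.9 CPM in sperm libraries against 269, 191 and 179 CPM in nucleus libraries, 9.12-fold lower. The count called higher was 9 of 24 tested without sperm replicate 2, where 2622 of all 14477 tested genes were. It was 8 of 24 with TMM factors taken before the filter, where 3399 of all 14061 were.

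Histone genes of a family went in opposite directions. Among 7 tested H3 genes HTR10, HTR4 and HTR1 were called higher in sperm cells and HTR5 lower. HTR5, an H3.3 gene, had 14.0, 23.7 and 27.6 CPM in sperm libraries and 73.6, 64.0 and 68.2 CPM in nucleus libraries, 3.15-fold lower (edgeR adjusted p = 0.0439, and 0.0703 to 0.125 without sperm replicate 1, 2 or 3 or nuclei replicate 2 or 3, which ends the call). HTR4, another H3.3 gene, had 35.7, 41.6 and 64.5 CPM in sperm libraries and 3.91, 1.79 and 1.92 CPM in nucleus libraries, 18.6-fold higher. Of 20 tested H2A, H2B and H1 genes 8 (40%) were called higher and 1 (5%) lower, against 30.7% and 14.3% of all tested genes. HTB5, an H2B gene, had 2790, 3621 and 2718 CPM in sperm libraries and 65.8, 40.1 and 16.5 CPM in nucleus libraries, while HTB2, another H2B gene, had 4.26, 3.85 and 3.33 CPM against 63.1, 64.3 and 101 CPM. Neither gene's groups overlapped, and HTB5 was 74.6-fold higher and HTB2 19.9-fold lower. Reads of such close copies may have been split between them. Reads of the fusion transgenes may also be counted for HTR10 and for an H2B gene such as HTB2, which was not tested.

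DNA methylation genes included 9 called higher of 22 tested (40.9%, against 30.7% of all tested genes) and none called lower. MET1, the maintenance methyltransferase of CG sites, had 461, 728 and 741 CPM in sperm libraries and 0.372, 9.46 and 4.13 CPM in nucleus libraries, 138-fold higher (edgeR adjusted p = 0.00499). VIM1 and VIM5, cofactors of MET1, were 325-fold and 144-fold higher, and DML3, a demethylase, had no counts in nuclei and was at least 579-fold higher. SUVH5, an H3K9 methyltransferase, and MORC4, a MORC-type ATPase, were 386-fold and 110-fold higher. Without sperm replicate 2 and nuclei replicate 1 together 4 of the 22 were called higher, beside 2307 of all 14699 tested. Of 21 tested small RNA genes 5 (23.8%, against 30.7% of all tested genes) were called higher: DRB4, AGO9, AGO6, DRM3 and CLSY4. AGO9, a germline Argonaute, had 291, 407 and 462 CPM in sperm libraries and 0.124, 6.09 and 0.0746 CPM in nucleus libraries. The calls of DRM3 and CLSY4 ended without any one of the sperm libraries or nuclei replicate 2 (adjusted p = 0.0538 to 0.0948), and that of AGO6 without sperm replicate 2 (adjusted p = 0.0532). In the list, 3 of 28 tested genes were called without sperm replicate 1 and 2 of 22 without sperm replicate 2. Called higher over all genes in these 2 fits were 2257 of 17125 and 2622 of 14477.

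Of 17 tested polycomb and H3K27 genes 4 (23.5%) were called higher, against 30.7% of all tested genes, and none lower. The 4 were BMI1A and BMI1B, subunits of the repressive complex PRC1, and the H3K27 demethylases JMJ13 and REF6. BMI1A had 796, 1274 and 1048 CPM in sperm libraries and 12.5, 10.3 and 12.9 CPM in nucleus libraries, 87.5-fold higher (edgeR adjusted p = 0.000555). The call of REF6 ended without any one library except nuclei replicate 2 (adjusted p = 0.0576 to 0.082), and those of REF6 and JMJ13 with TMM factors taken before the filter. The methyltransferases of PRC2 were scarce: CLF had at most 2.09 CPM and SWN at most 4.86 CPM in a sperm library, against at most 1.70 and 7.44 CPM in a nucleus library, and neither was called. The median log2 fold change of the list was 1.15, and -0.20 with TMM factors taken before the filter.

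Cell cycle genes held one of the most abundant sperm transcripts. CYCD7;1, a D-type cyclin, had 43540, 57010 and 48940 CPM in sperm libraries and 448, 406 and 149 CPM in nucleus libraries, 149-fold higher (edgeR adjusted p = 0.000601). Of 29 tested regulators 17 (58.6%, against 30.7% of all tested genes) were called higher and none lower. Without sperm replicate 1, 10 of 33 tested were called higher, beside 2257 of 17125 over all genes. CKS2, a CDK subunit, was 194-fold higher and RBR1, the retinoblastoma protein that restrains E2F factors, 58.2-fold higher. RBR1 had 185, 280 and 275 CPM in sperm libraries and 4.15, 6.01 and 2.54 CPM in nucleus libraries. E2FA, an activating E2F factor, had 6.43, 10.0 and 10.9 CPM in sperm libraries and no counts in nucleus libraries, at least 334-fold higher, and E2FE and E2FF, atypical family members, were also called higher.

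DNA repair and chromosome segregation genes had calls on the sperm side and many members that were not called. Of 24 tested repair genes 13 (54.2%, against 30.7% of all tested genes) were called higher and none lower. Without sperm replicate 1, 7 of 25 tested were called higher, beside 2257 of 17125 over all genes. With TMM factors taken before the filter 7 of 24 were, beside 3399 of 14061. BRCA1, of homologous recombination, had 305, 538 and 506 CPM in sperm libraries and 5.46, 9.15 and 0.298 CPM in nucleus libraries, 90.5-fold higher (edgeR adjusted p = 0.00755). ZDP, a DNA 3′ phosphatase, was 86.0-fold higher, the mismatch repair gene MSH6 130-fold higher and LIG1, the replicative ligase, 6.65-fold higher, a call that ended with no expression filter. SOG1, the plant transcription factor of the DNA damage response, had no counts in nuclei and was at least 670-fold higher. Of 22 tested cohesin and kinetochore genes 10 (45.5%, against 30.7% of all tested genes) were called higher and none lower. Among the 10 were SPC25, a kinetochore subunit, at 120-fold and MAD2, of the spindle checkpoint, at least 659-fold higher. The count was 5 of 22 without sperm replicate 1 and 6 of 22 with TMM factors taken before the filter.

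Genes of the nuclear rim and of transport across it were called on both sides. SUN1, a bridge of the inner nuclear membrane, had 573, 832 and 960 CPM in sperm libraries and 13.7, 19.2 and 19.7 CPM in nucleus libraries. SUN5, a mid-SUN protein, had 0, 1.08 and 0.441 CPM in sperm libraries and 36.7, 129 and 204 CPM in nucleus libraries. The groups were clear of each other for both, with SUN1 45.0-fold higher and SUN5 242-fold lower in sperm cells (edgeR adjusted p = 0.000627 and 0.00745). Of 14 tested envelope genes 6 (42.9%) were called higher and 1 (7.14%) lower, against 30.7% and 14.3% of all tested genes. The 6 were SINE2, SUN1, KAKU4, WIP2, WIT1 and SUN4, and the 1 called lower was SUN5. WIT1, which helps hold the vegetative nucleus in its place in the tube, was 3.05-fold higher, at 349, 366 and 444 CPM in sperm libraries against 139, 99.4 and 142 CPM in nucleus libraries. Its call ended without sperm replicate 3 or any one nucleus library (adjusted p = 0.0517 to 0.115), and that of SUN4 without any one library except nuclei replicate 2 (adjusted p = 0.0589 to 0.105). With TMM factors taken before the filter 3 of 14 envelope genes were called higher and 2 lower, beside 3399 and 2480 of all 14061. WIP2 and WIT1 were among those not called.

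Of 29 tested nuclear transport genes 13 (44.8%) were called higher and 2 (6.9%) lower, against 30.7% and 14.3% of all tested genes. XPO1B, an exportin, had 266, 319 and 351 CPM in sperm libraries and 0.806, 2.60 and 2.91 CPM in nucleus libraries, 148-fold higher (edgeR adjusted p = 0.000877). The importin alpha genes IMPA-5 and IMPA-8 had no counts in nuclei and were at least 2702-fold and 503-fold higher. The genes called lower were RAN-1, the GTPase that drives the transport cycle, at 48.7, 50.01 and 101 CPM in sperm libraries against 445, 252 and 224 CPM in nucleus libraries, and the nuclear basket gene TPR, 5.68-fold lower. The call of RAN-1 ended without sperm replicate 1 or 2 (adjusted p = 0.0685 and 0.0522), and that of TPR without sperm replicate 1 or 3 or nuclei replicate 2 or 3 (adjusted p = 0.0506 to 0.0732).

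RNA processing and translation genes that were called were mostly higher in sperm cells. Of 18 tested SR splicing proteins 11 (61.1%, against 30.7% of all tested genes) were called higher and none lower. Leaving out any sperm library or nuclei replicate 1 took the count to between 3 and 7, with 18 or 19 tested. Without sperm replicate 1 it was 3 of 18, beside 2257 of 17125 over all genes. With TMM factors taken before the filter it was 4 of 18, beside 3399 of 14061. RSZ32 had 505, 614 and 875 CPM in sperm libraries and 30.3, 15.6 and 5.17 CPM in nucleus libraries. Of 19 tested translation factors 11 (57.9%) were called higher and 1 (5.26%) lower, against 30.7% and 14.3% of all tested genes. The poly(A)-binding protein genes PAB2, PAB5, PAB6 and PAB7 were 57.8-, 61.8-, 80.3- and 89.0-fold higher, and PAB5 had 3091, 5346 and 5852 CPM in sperm libraries against 105, 79.2 and 47.2 CPM in nucleus libraries (edgeR adjusted p = 0.000685). EIF4A1, an RNA helicase of initiation, was called lower, at 1.09, 3.13 and 3.25 CPM in sperm libraries against 71.9, 51.5 and 57.6 CPM in nucleus libraries.

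Ribosomal protein family genes were matched by their description, and the match holds cytosolic members and some of the organelles, such as PRPS10 of the plastid ribosome. Of 74 tested 40 (54.1%) were called higher and 7 (9.46%) lower, against 30.7% and 14.3% of all tested genes. The median log2 fold change of the 74 was 4.78. The summed level of all 127 members, tested or not, was 674, 1077 and 854.5 CPM in sperm libraries. It was 694, 444 and 403 CPM in nucleus libraries, and the groups overlapped. The count called higher was 17 of 87 tested without sperm replicate 1 and 23 of 94 without nuclei replicate 1. Over all genes these fits called 2257 of 17125 and 3155 of 19298 higher. Of 16 proteasome genes 6 (37.5%, near the 30.7% of all tested genes) were called higher. The count was 2 of 18 tested without sperm replicate 1 and 3 of 16 without sperm replicate 2. It was 3 of 21 without nuclei replicate 1 and 3 of 19 without nuclei replicate 2. Of 8 Sm and LSM genes 5 (62.5%) were called higher, all of them under 6 CPM in every library. The count of this list was 1 of 11 tested without sperm replicate 1 and 3 of 8 without sperm replicate 2. It was 3 of 16 without nuclei replicate 1 and 3 of 14 without nuclei replicate 3.

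Protein turnover genes were called close to the rates of all tested genes, 37% against 30.7% higher and 18.5% against 14.3% lower. ASK1, the SKP1 adaptor of SCF ubiquitin ligases, had 3765, 4181 and 4727 CPM in sperm libraries and 251, 127 and 114 CPM in nucleus libraries. Its scaffold partner CUL1 had 693, 1137 and 1269 CPM in sperm libraries and 96.8, 94.0 and 62.8 CPM in nucleus libraries. The sperm libraries were the higher ones for both, by 25.8-fold and 12.2-fold (edgeR adjusted p = 0.000871 and 0.00171). UBC20, a conjugating enzyme that works with the anaphase-promoting complex, was 152-fold higher, and APC5, a subunit of that complex, was called higher as well. The polyubiquitin genes UBQ10 and UBQ11 were called lower, UBQ10 at 26.1, 29.2 and 23.1 CPM in sperm libraries against 421, 433 and 432 CPM in nucleus libraries. COP1, a light-signalling ubiquitin ligase, had no counts in sperm libraries and was at least 211-fold lower, and CDC20.1, an activator of the anaphase-promoting complex, and RBX1, the RING subunit of SCF ligases, were 5.60-fold and 4.87-fold lower. The call of CDC20.1 ended without any one library except nuclei replicate 1 (adjusted p = 0.0515 to 0.108), and that of RBX1 without any one sperm library or nuclei replicate 3 (adjusted p = 0.0841 to 0.15). In all, 10 of 27 tested members were called higher and 5 lower.

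**Figure D3:**
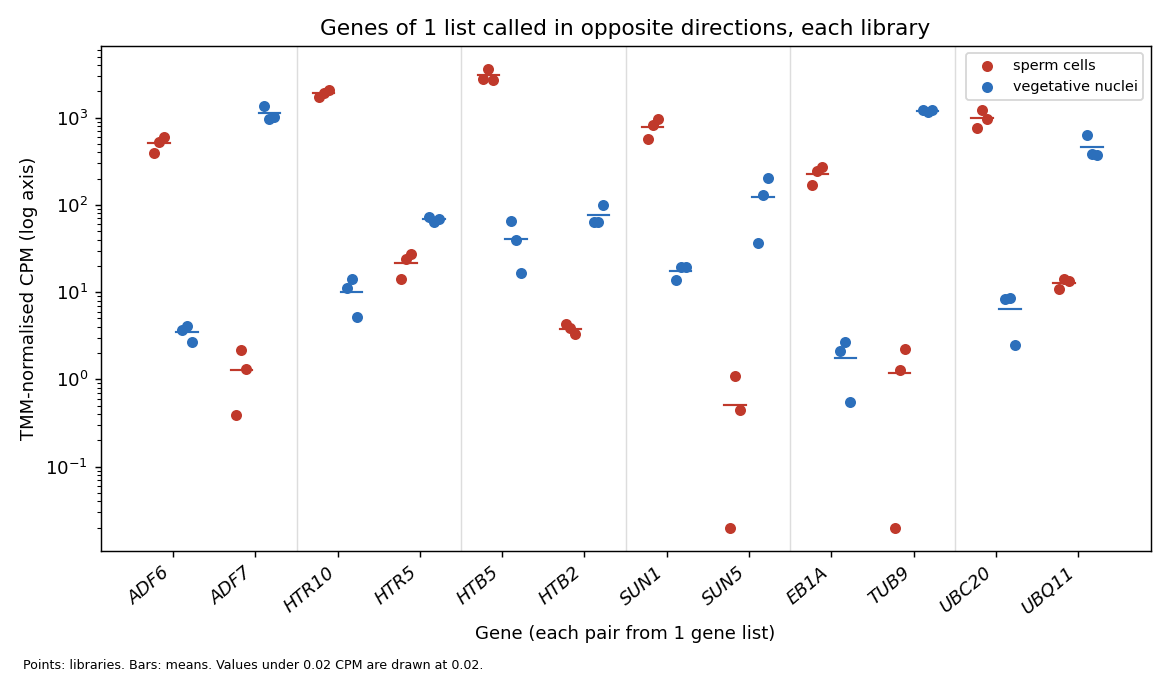
TMM-normalised CPM (vertical, log axis) of 12 genes in each library, sperm cells left of vegetative nuclei, with 1 pair from each of 6 gene lists. For the first gene of each pair every sperm library lies above every nucleus library, and for the second below, such as SUN1 (45.0-fold higher) beside SUN5 (242-fold lower). Reads of the fusion transgenes may be included for HTR10 and for an H2B gene.

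Tube growth lists were led by genes lower in sperm cells, with a few sperm-side members. The actin, calcium and ROP lists share members with the vegetative markers, such as ADF7, ACA9 and ROPGEF9. Of 38 tested actin cytoskeleton genes 21 (55.3%) were called lower and 5 (13.2%) higher, against 14.3% and 30.7% of all tested genes. ADF7 had 0.388, 2.17 and 1.32 CPM in sperm libraries and 1370, 977 and 1015 CPM in nucleus libraries, while ADF6, of the same actin-depolymerising family, had 397, 523 and 602 CPM in sperm libraries and 3.72, 4.09 and 2.71 CPM in nucleus libraries. The direction was opposite with no overlap, 867-fold lower for ADF7 and 145-fold higher for ADF6 (edgeR adjusted p = 0.000648 and 0.000555). ADF10 was 673-fold lower, the LIM protein PLIM2b 3803-fold lower and the bundling protein FIM4 26.7-fold lower. The other genes called higher were VLN1, a bundling villin, at 299, 381 and 435 CPM in sperm libraries against 1.43, 10.7 and 2.61 CPM in nucleus libraries, and ADF1, ACT7 and XI-2, each under 10 CPM in every library. The calls of ADF1, ACT7 and XI-2 ended whichever library was left out (adjusted p = 0.0512 to 0.202).

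Of 25 tested microtubule genes 10 (40%) were called lower and 6 (24%) higher, against 14.3% and 30.7% of all tested genes. Tubulins, the subunits of microtubules, were among those called lower. TUB9 had 0, 1.28 and 2.25 CPM in sperm libraries against 1214, 1155 and 1238 CPM in nucleus libraries, and TUA4 was 47.3-fold, TUB7 130-fold and TUB4 10.5-fold lower. EB1A, which binds growing microtubule ends, had 168, 242 and 270 CPM in sperm libraries and 2.11, 2.65 and 0.547 CPM in nucleus libraries, 128-fold higher (edgeR adjusted p = 0.00147). MAP65-5, a crosslinker, was also called higher. Levels of close tubulin copies are uncertain, since reads may map to several of them.

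Calcium genes had the largest share called lower among the 4 tube growth lists (actin, microtubule, calcium and ROP), 28 of 35 tested against 14.3% of all genes, with a median log2 fold change of -5.46. CPK24, a calcium-dependent kinase, had 20.08, 56.5 and 34.0 CPM in sperm libraries and 1301, 1241 and 1409 CPM in nucleus libraries, 35.7-fold lower (edgeR adjusted p = 0.000969). CPK26, another such kinase, was 1221-fold lower, and the plasma membrane calcium pump ACA9 72.1-fold lower. The calmodulin genes CAM2 and CAM3 were 299-fold and 655-fold lower. The single calcium gene called higher was the glutamate receptor-like channel gene GLR3.3, at 5.35, 8.27 and 10.7 CPM in sperm libraries and 0, 0.112 and 0 CPM in nucleus libraries.

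ROP signalling, which sets the growing tip, had 16 of 24 tested genes called lower and 3 higher. These shares were 66.7% and 12.5%, against 14.3% and 30.7% of all tested genes. RIC5, a ROP effector, had 0.0775, 0.562 and 0.321 CPM in sperm libraries and 427, 271 and 335 CPM in nucleus libraries, 1075-fold lower (edgeR adjusted p = 0.000681). RIC1, ROPGEF9, ROP1, ROP3 and ROP5 were 163-, 150-, 25.7-, 16.0- and 18.8-fold lower. The 3 called higher were ROP2, ROP10 and ROPGEF7, each under 6 CPM in every sperm library and with no counts in nuclei. Their calls ended without sperm replicate 1 or 2, and for ROP10 and ROPGEF7 without any one nucleus library (adjusted p = 0.0507 to 0.0765).

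Pollen transcription factors were called in both directions. DUO1, the germline regulator, had 80.2, 86.5 and 92.5 CPM in sperm libraries and 0, 0.131 and 0.149 CPM in nucleus libraries, 926-fold higher (edgeR adjusted p = 0.00122). Its zinc finger target DAZ3 had 10980, 15080 and 17830 CPM in sperm libraries and 175, 107 and 38.1 CPM in nucleus libraries, 137-fold higher. MYB120, which acts in the vegetative cell for sperm release, had 1.32, 2.41 and 0.482 CPM in sperm libraries and 323, 365 and 403 CPM in nucleus libraries, 259-fold lower. AGL30, a MIKC*-type MADS-box gene, was 14.8-fold lower, and VOZ2 and NF-YB10 were 30.2-fold and 18.8-fold higher. Of 25 tested factors 6 (24%) were called higher and 11 (44%) lower, against 30.7% and 14.3% of all tested genes. DUO1, DAZ3 and MYB120 are also members of the marker lists.

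Embryo and zygote regulators were called higher at about the rate of all tested genes, 33.3% against 30.7%. SSP, a kinase whose transcript is carried by sperm and acts in the zygote, had 447, 521 and 718 CPM in sperm libraries and 1.80, 6.09 and 0.0249 CPM in nucleus libraries, 213-fold higher (edgeR adjusted p = 0.0113). Of 12 tested members 4 were called higher, SSP, ZAR1, HDG12 and LEC2. Without sperm replicate 2 and nuclei replicate 1 together 1 of 12 was called, beside 2307 of 14699 called higher over all genes. BBM, an AP2 factor of early embryos, had 50.4, 71.7 and 71.3 CPM in sperm libraries and 0, 0 and 2.69 CPM in nucleus libraries and was not called (edgeR adjusted p = 0.0523), though it was called without nuclei replicate 3 (edgeR adjusted p = 0.00094). LEC2, a seed regulator, was at most 5.70 CPM in a sperm library, and its call ended whichever library was left out (edgeR adjusted p = 0.0505 to 0.0697).

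Markers of other tissues were scarce. The 17 leaf photosynthesis markers summed to 2.09 to 13.9 CPM in sperm libraries and 1.49 to 5.45 CPM in nucleus libraries. The 13 tapetum and anther markers summed to 2.61 to 16.7 CPM in sperm libraries and 0 to 1.14 CPM in nucleus libraries. The 19 pistil and ovule markers summed to 4.70 to 39.4 CPM in sperm libraries and 0.0249 to 5.88 CPM in nucleus libraries, with the highest value in sperm library 2, the library with the most genes counted. Few were tested: the 1 tapetum and anther marker tested and 2 of 6 pistil and ovule markers were called higher in sperm cells, and none lower. Neither of the 2 leaf markers tested was called. Without sperm replicate 2 no marker of these 3 lists was called.

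Protein-coding genes made up nearly all counts, and the shares below are of library counts and not of the RNA in a cell. Protein-coding genes took 99.7% ± 0.00701 of counts in sperm libraries and 99.3% ± 0.207 in nucleus libraries (SD, n = 3 each). Long non-coding RNAs took 0.0957% ± 0.0289 in sperm libraries and 0.253% ± 0.0207 in nucleus libraries. Mitochondrial genes took 0.0229% ± 0.00256 and 0.00211% ± 0.000632, and small nucleolar RNAs 0.0148% ± 0.00205 and 0.00209% ± 0.00125. Ribosomal RNA genes went the other way, at 0.0215% ± 0.0153 in sperm libraries and 0.229% ± 0.0993 in nucleus libraries. The groups overlapped for none of these classes, and each 2-sided exact permutation test gave p = 0.1, the smallest that 3 against 3 libraries allow.

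Promoter motifs differed in share between genes called in the 2 directions, as the plot of motif shares by call and level shows. Motifs were searched on both strands in the window from 250 bases before to 50 after the start of 27443 protein-coding genes. The MEF2-type CArG box was found in 25.5% of the 106 genes called lower with at least 1000 CPM in nuclei and in 2.27% of the 132 called higher with at least 1000 CPM in sperm cells, against 2.49% of all promoters. At 100 to 1000 CPM these shares were 9.36% of genes called lower and 1.05% of genes called higher. Genes that carry it and were named above include ADF7, ADF10, AT3G01270, LRX10, AT3G28750, AT5G39880, TUB4 and TUB9, and also MIOX5 and ACT7, which were not called lower.

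AACCG was found in 43.2% of genes called higher with at least 1000 CPM in sperm cells and in 22.6% of those called lower with at least 1000 CPM in nuclei, against 26.8% of all promoters. Over all called genes the shares lay closer together, at 33.6% of those called higher and 29.3% of those called lower, with 29% of tested genes that were not called. Among the 19 sperm markers, some of which are known DUO1 targets, 17 carried it. The site II element TGGGCC was found in 23.8% of all genes called higher and 11.4% of those called lower, against 15.5% of all promoters. The telo box AAACCCTA was found in 7.65% and 3.67%, against 6.22%, and both of these elements are common in the 126 promoters of the ribosomal protein family list, at 58.7% and 40.5%. The E2F sites TTTCCCGC or TTTGGCGC were found in 2.26% of genes called higher and 1.07% of genes called lower, against 1.21% of all promoters. A match describes the letters of a window and not binding.

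**Figure D4:**
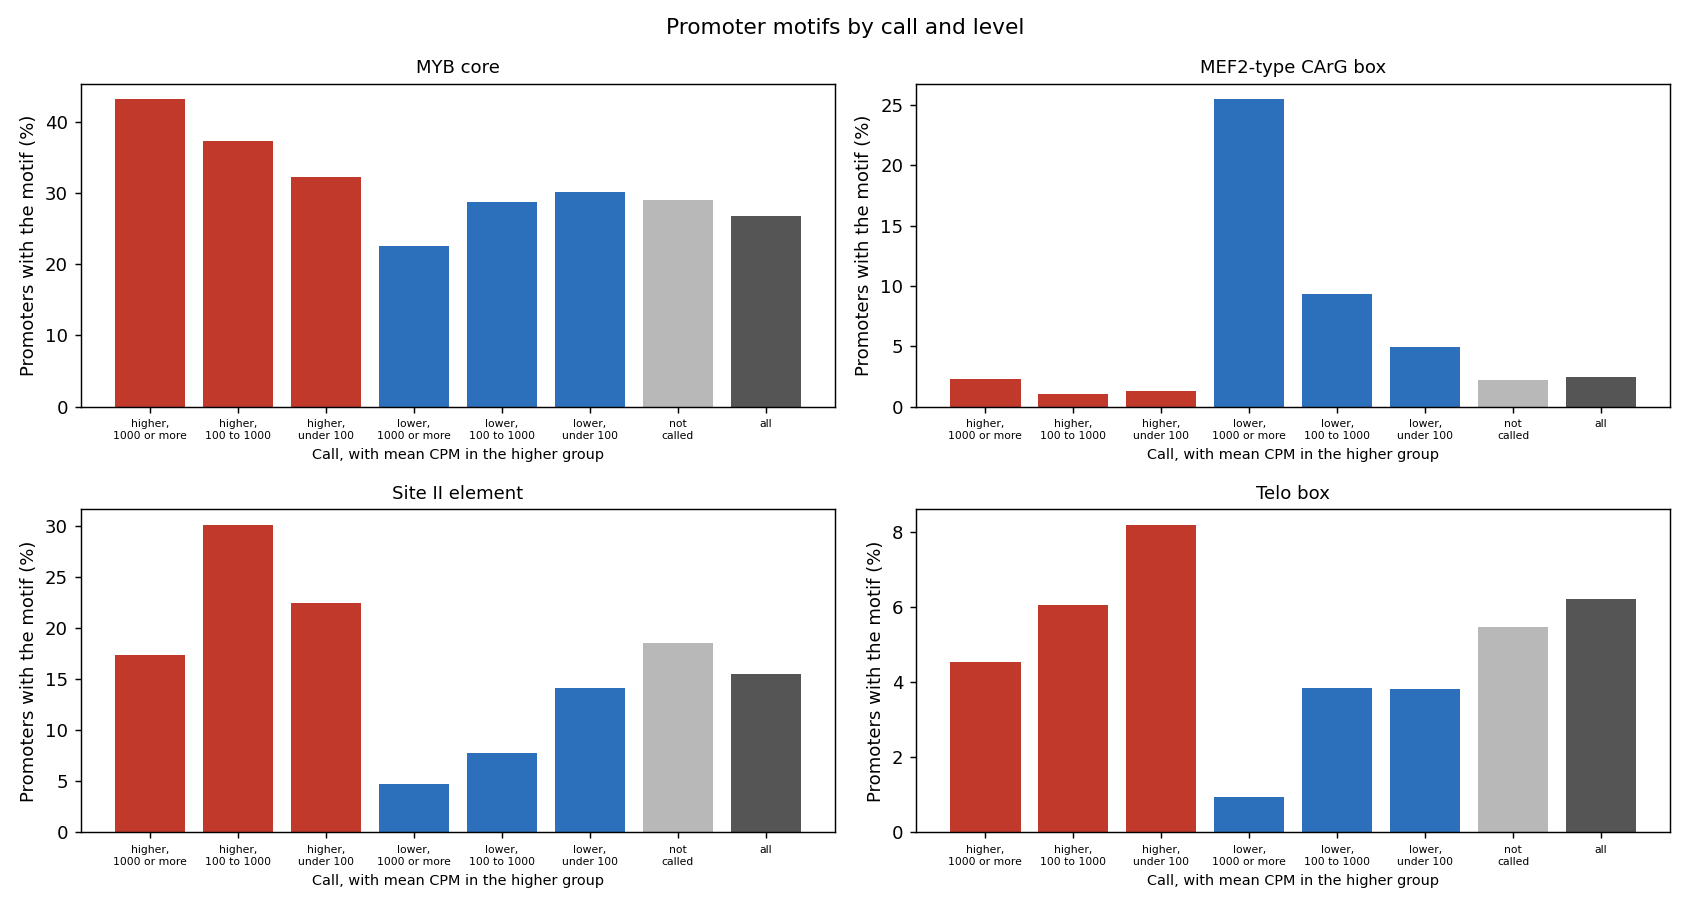
Share of promoters with each of 4 motifs (vertical, percent) by call and by mean CPM in the higher group, beside genes not called and all promoters. The MEF2-type CArG box reaches 25.5% in abundant genes called lower and the MYB core 43.2% in abundant genes called higher.

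Abundant genes of the 2 directions also differed in structure. The median transcript of genes called higher with at least 1000 CPM was 1662 bases with 5 exons, and of those called lower with at least 1000 CPM 1390 bases with 2 exons. Single-exon genes were 15.9% of the first set and 34.9% of the second, against 20.5% of all protein-coding genes.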

How the data were processed

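RNA was measured by Smart-seq2 in 3 sperm cell and 3 vegetative nucleus libraries. The authors deposited whole-number counts per gene for 32833 genes in 1 table. Trim Galore, HISAT2, featureCounts and the build TAIR10 are named per the submitters' processing notes, without versions or settings. Counts were used as deposited. Genes were kept by filterByExpr with a minimum count of 10 (14061 genes), scaled by TMM and tested with edgeR's quasi-likelihood test with Benjamini-Hochberg adjustment over all of them, with a threshold of 0.05. The script was tested on simulated data. Fold changes are sperm cells over nuclei, as ratios of mean CPM in the text, and a gene at 0 in a group is set against 3 counts over that group.

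Gene lists were matched by symbol, and the comparison, its lists and its members were chosen with earlier results of these data known. Outside the lists, the 12 genes called in each direction with the highest mean CPM, at least 16-fold apart and with no overlap, may be named. Within a list, so may the 6 tested members with the smallest adjusted p, and any member of a list of at most 20. Other members, such as those on the smaller side of a list, were named after their values were seen. Same-numbered libraries of the groups did not deviate together (correlations of 0.023, 0.066 and 0.004), and the main test did not pair them. These correlations cannot show whether same-numbered libraries share a planting or sort, because each library also varies on its own. Counts without strand or molecular identifiers cannot separate overlapping, antisense or nearly identical genes, and bounds cover counting error only. Promoters and gene models came from the RefSeq annotation of TAIR10.1, matched by locus identifier.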

Additional observations from a re-analysis of the deposited data

How the results depend on the processing

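In all 21 alternatives every gene called both there and in the full set had the same direction. Genes called in 2 fits that mostly share libraries could hardly differ in direction. Between 3552 and 5854 genes were called when 1 library was left out, with 2257 to 4301 higher and 1295 to 2566 lower, the lowest 3 without sperm replicate 1. The split into higher and lower calls was 2433 and 2352 with no expression filter and 2584 and 2001 with at least 5 CPM in at least 3 libraries. It turned to 2307 higher and 2536 lower without sperm replicate 2 and nuclei replicate 1 together. DESeq2 called 8244 genes and limma-voom 8866. The median log2 fold change of 1.70 became 1.57 under RLE scaling, 1.27 under upper-quartile scaling, 1.04 under TMM restricted to genes with at least 10 counts throughout and 0.55 under TMM taken before the filter. These 4 scalings gave 4, 7, 4 and 0 genes at a like level. The signs of 3 genes that were not called (MIOX5, WRKY2 and CLF) turned. MIOX5 ranged from -0.749 to 0.225 when 1 library was left out, and lay at -0.027 under RLE scaling and in DESeq2, -0.343 under upper-quartile scaling, -0.543 under restricted TMM, -0.929 under TMM before the filter and with no filter, -0.755 without sperm replicate 2 and nuclei replicate 1, -0.067 with semi in vivo sperm cells and -0.189 after thinning. WRKY2 ranged from -0.763 to 0.259 when 1 library was left out, and lay at -0.303 under upper-quartile scaling, -0.508 under restricted TMM, -0.9 under TMM before the filter and with no filter, -0.704 without sperm replicate 2 and nuclei replicate 1 and -0.149 after thinning. CLF ranged from -1.574 to 0.716 when 1 library was left out, and lay at -0.28 under RLE scaling, -0.283 in DESeq2, -0.745 in limma-voom, -0.558 under upper-quartile scaling, -0.816 under restricted TMM, -1.443 under TMM before the filter, -1.445 with no filter, -2.518 without sperm replicate 2 and nuclei replicate 1, -1.415 with semi in vivo sperm cells, -0.117 with the block and -0.662 after thinning. Genes counted in sperm cells only were 770 at a minimum of 20 counts. Without the 10 most abundant genes of each library the difference in share was 0.0397 percentage points for mitochondrial genes and 0.0248 for small nucleolar RNAs. With the replicate number as a block 5790 genes were called (3923 higher, 1867 lower). The cause of these differences was not tested. Of 3016 values of named genes, 2814 kept direction and side of the threshold, 162 lost the call, 9 gained it and 31 changed sign. Of 630 list counts, 543 stayed within 1.5 times. After thinning to the shallowest library 5943 genes were called.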
